A study of Mus musculus with 8 samples.

Results

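The 7 genes described here are the D-type cyclins Ccnd1, Ccnd2 and Ccnd3, their kinases Cdk4 and Cdk6, and the inhibitors Cdkn1a (p21) and Cdkn1b (p27). They are 7 of the 57010 genes in the deposited count matrix and were found by symbol, each at 1 gene identifier. The group was chosen by measured values, namely a lower Ccnd3 level after injury and a higher one under entospletinib in macrophages, so the Ccnd3 values in macrophages are a description and support nothing. Single kidney cells of male C57BL/6 mice had been profiled in 7 conditions, with leukocytes enriched by a sort for live cells and scatter. The control was the untouched kidney. The other 6 conditions had ischemia-reperfusion injury (IRI) of the left kidney, in which blood flow is stopped and restored, and received either the vehicle DMSO or entospletinib, an inhibitor of the kinase SYK, by intraperitoneal injection starting before the injury, with collection at day 1, 7 or 14. The age of the mice was not given in the sources used here. Each condition was 1 pool of kidneys from 3 mice, so no difference between conditions could be tested, and no p-value is given. Cells of every condition were divided over 8 sublibraries, and the SD after each value is the spread over these portions of the same cells, a technical error only.

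D-type cyclins bind CDK4 or CDK6, and the active pairs phosphorylate the retinoblastoma protein, which frees E2F factors to switch on the genes of DNA replication. Growth factors and cytokines drive the cyclins during G1, with a different member favoured in different cell types. p21, a classic target of p53, and p27, which is high in resting cells, brake the cyclin-kinase pairs that act at the G1/S border, and both also help CDK4 and CDK6 to assemble with a cyclin. In macrophages CSF1 signalling induces cyclin D1, and p21 and p27 are also known from differentiated cells that no longer divide.

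In the mouse genome (GRCm38, GENCODE vM21) Ccnd3 lies at chr17:47505051-47599691 on the plus strand and Cdkn1a at chr17:29090976-29100727 on the plus strand. Cdk4 lies at chr10:127063534-127067920, Cdk6 at chr5:3341485-3531008 and Cdkn1b at chr6:134920401-134925513, all on the plus strand. Ccnd1 lies at chr7:144929931-144939925 and Ccnd2 at chr6:127125162-127152193 on the minus strand. All 7 are protein-coding. No annotated gene overlaps a member on its own strand, but 6 of the 7 have a gene on the opposite strand, among them Bysl for Ccnd3 and Tspan31 for Cdk4. Whether the counting used strand was not stated in the sources used here, and without it reads of such pairs cannot be told apart.

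RefSeq promoter windows (GRCm38.p6) were at hand for 5 of the 7 members. The 250 bases upstream of the start are shown for Ccnd3 and Cdkn1a, because their values ran in opposite directions in macrophages, and for Cdk4, because of the motif repeated in its window. Ccnd3 has 2 listed starts, with windows chr17:47504801-47505050 and chr17:47593217-47593466, Cdkn1a has 2, with windows chr17:29090729-29090978 and chr17:29093519-29093768, and the Cdk4 window is chr10:127063285-127063534. All are on the plus strand, written 5′ to 3′. Capitals mark any match, on either strand, to CACGTG (E-box), GGGCGG (GC box), TTCNNNGAA (STAT), TGANTCA (AP-1), TTTGGCG or TTTCGCG (E2F) and GAGGAA (ETS).
Ccnd3 first start: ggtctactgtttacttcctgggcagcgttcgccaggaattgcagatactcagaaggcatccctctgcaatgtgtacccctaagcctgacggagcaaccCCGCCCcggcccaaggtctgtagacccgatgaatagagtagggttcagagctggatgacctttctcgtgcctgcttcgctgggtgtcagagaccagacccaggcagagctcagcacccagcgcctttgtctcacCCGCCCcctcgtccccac
Ccnd3 second start: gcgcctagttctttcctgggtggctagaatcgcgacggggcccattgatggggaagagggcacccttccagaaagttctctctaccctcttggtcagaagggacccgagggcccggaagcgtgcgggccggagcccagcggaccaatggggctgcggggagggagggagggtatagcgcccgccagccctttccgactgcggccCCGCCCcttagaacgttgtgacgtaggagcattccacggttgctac
Cdkn1a first start: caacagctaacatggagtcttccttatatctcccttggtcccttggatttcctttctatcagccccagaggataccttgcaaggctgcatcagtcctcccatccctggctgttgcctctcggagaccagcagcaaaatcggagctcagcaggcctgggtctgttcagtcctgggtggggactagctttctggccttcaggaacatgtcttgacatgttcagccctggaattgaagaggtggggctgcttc
Cdkn1a second start: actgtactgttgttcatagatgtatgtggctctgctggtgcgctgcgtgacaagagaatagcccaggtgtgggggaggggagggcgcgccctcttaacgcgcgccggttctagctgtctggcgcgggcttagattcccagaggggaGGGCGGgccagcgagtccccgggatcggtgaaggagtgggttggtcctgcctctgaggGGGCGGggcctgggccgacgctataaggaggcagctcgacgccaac
Cdk4: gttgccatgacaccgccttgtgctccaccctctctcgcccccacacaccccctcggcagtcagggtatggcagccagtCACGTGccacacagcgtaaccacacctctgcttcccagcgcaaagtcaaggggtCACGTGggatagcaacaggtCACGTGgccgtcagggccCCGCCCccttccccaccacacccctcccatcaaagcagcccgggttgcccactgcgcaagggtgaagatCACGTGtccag
The Cdk4 window held CACGTG 4 times, a motif present in 6.02% of 32851 windows of this length. The GC box was found once in the Cdk4 window, 2 times at the first Ccnd3 start, once at the second, 2 times at the second Cdkn1a start and in no place at the first, against 32.7% of all windows with at least one. None of the 5 windows shown held the letters searched for STAT (7.02% of windows), AP-1 (6.75%), E2F (1.93%) or ETS (23.3%). No p53 motif was searched for, so the unmarked first Cdkn1a window is empty only of the motifs listed. Such matches describe letters in a window and no binding was measured.

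With the limits on cells that the study's methods state, 79389 of 120281 barcodes remained, fewer than the cells the study kept for its kidney map, and 90855 remained without the limit on ribosomal protein counts, for which the gene set was not stated. There were 5806 to 20571 cells per condition. Cells were put in classes by marker genes, and a class is written here as macrophage-like and so on. In all 15 classes the 10 leading genes included at least 2 markers of the class itself and none of another class, and no member was among them. Because the same markers placed the cells, this describes the classes and is no check of them. The macrophage-like class held 22883 cells, 1900 to 7229 per condition, led by Slco2b1, C1qa, Ms4a7 and C1qc. Their median depth was 2307 to 4110 counts per cell in 6 conditions and 957 under entospletinib at day 14. Of 105340 barcode combinations, 13712 were seen in 2 or more sublibraries. Levels are in CPM, the counts of a gene scaled to a total of 1000000 counts over all genes of a class in a condition. Because the counts are not divided by gene length, levels are compared between conditions and classes for 1 gene and never between genes.

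In macrophage-like cells Ccnd3, the D-type cyclin of many blood cells, was at 839 ± 38.4 CPM in the control. Under vehicle it was at 75.3 ± 7.64 at day 1, 174 ± 18.2 at day 7 and 370 ± 20.7 at day 14. Under entospletinib it was at 151 ± 20.1, 450 ± 22.3 and 1187 ± 54.6 on the same days. The 8 sublibraries of the control (773 to 886 CPM) lay above all those of the 3 vehicle conditions, and under entospletinib every sublibrary lay above every sublibrary of vehicle at the same day. Only entospletinib at day 1 and vehicle at day 7 overlapped among neighbours in the order of levels.

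**Figure D1:**
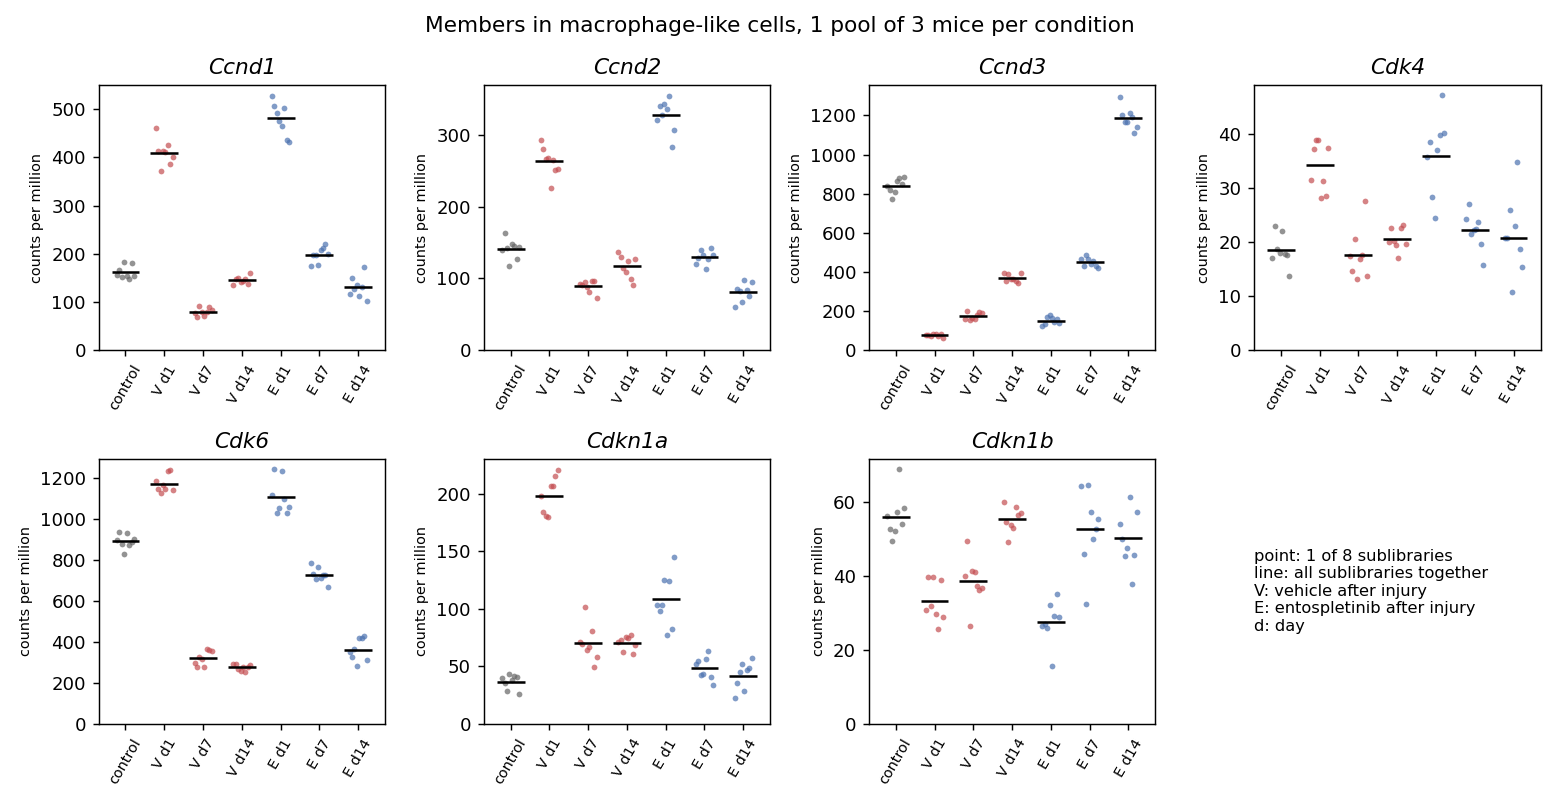
Levels of the 7 genes in macrophage-like cells in CPM (vertical axis, from 0) for the 7 conditions, with 1 point per sublibrary and a line at the value of all sublibraries together. The Ccnd3 control points sit between 773 and 886, vehicle at day 1 between 60.6 and 83.7 and entospletinib at day 14 between 1111 and 1294.

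Ratios between conditions are given on the log2 scale relative to the median of the 3391 genes averaging 50 CPM or more in the 7 macrophage-like conditions, since that median itself lay between -0.312 and 0.355. On this scale the Ccnd3 ratio of vehicle over control was -3.59 ± 0.19 at day 1, followed by -1.95 ± 0.14 at day 7 and -1.09 ± 0.11 at day 14. Entospletinib over vehicle gave 1.11 ± 0.19 at day 1, 1.01 ± 0.21 at day 7 and 1.62 ± 0.08 at day 14. All 8 sublibraries had the same direction in each of these 6 comparisons. The 3 vehicle comparisons share the control, and each drug comparison shares its vehicle pool with one of them.

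The day 14 entospletinib pool was shallow, and in all 7 conditions the Ccnd3 level was lower in cells of 4000 or more counts than in cells of 1000 to 2000 counts. Among cells of 2000 to 4000 counts, Ccnd3 was at 888.5 CPM in the control (95% Poisson interval 863 to 914, counting error only), 387 (374 to 399) under vehicle at day 14 and 913 (835 to 997) under entospletinib at day 14. In that range the drug-to-vehicle ratio of CPM was 1.58 at day 1, then 2.41 at day 7 and 2.36 at day 14, against 2.01, 2.58 and 3.21 over cells of every depth. Below 1000 counts the day 14 ratio was 3.10. At vehicle day 1 the cells of 2000 to 4000 counts had 87.9 CPM (77.9 to 98.8).

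**Figure D2:**
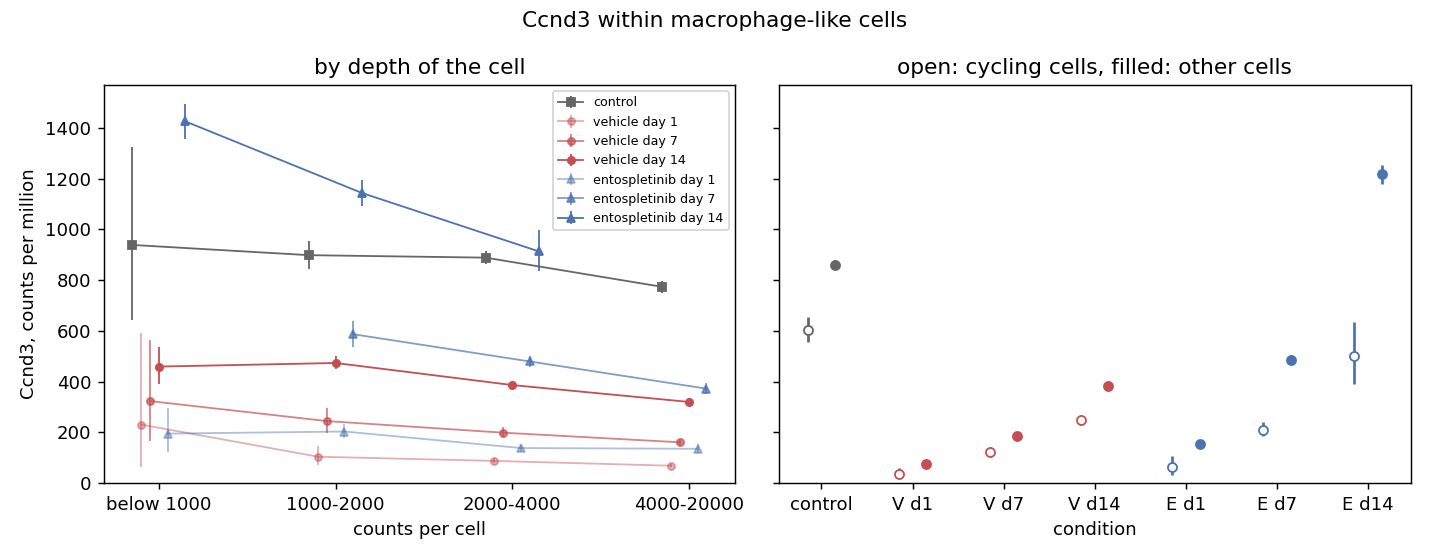
Ccnd3 in macrophage-like cells in CPM with 95% Poisson intervals, at left by counts per cell (bins with at least 20 cells) and at right in cycling (open) and other (filled) cells of each condition. The level is lower in the deepest cells drawn than in cells of 1000 to 2000 counts, control and entospletinib at day 14 stay above the vehicle conditions in every bin drawn, and cycling cells lie below other cells in all 7 conditions.

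With each macrophage-like cell thinned to 500 counts, 32.3% (exact 95% interval 30.7 to 33.9) of control cells held a Ccnd3 count. The share was 3.62%, 8.37% and 16.5% under vehicle at day 1, 7 and 14, and 8.04%, 20.7% and 41.4% under entospletinib. Cells under 500 counts were left out, 223 of them under entospletinib at day 14 and at most 15 in any other condition. Unthinned shares were 77.4% in the control, 21.0%, 38.8% and 49.4% under vehicle, and 23.9%, 59.5% and 61.2% under entospletinib. Proximal tubule-like cells were taken as a background class, though what share of their Ccnd3 counts is background was not measured. In this class 3.15% (2.42 to 4.03) of thinned cells held a Ccnd3 count over all conditions, at a median depth of 2474 counts, against 2609 for the macrophage-like cells. The vehicle day 1 share of macrophage-like cells (2.94 to 4.41) overlapped this background. In CPM, the proximal tubule-like cells of the same pool had 49.7 (35.01 to 68.5) and the macrophage-like cells 75.3 (70.4 to 80.5). With a level this close to that of the background class, neither the ratio to control at vehicle day 1 nor the drug ratio at day 1 is an exact size.

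Markers of other cells moved with the condition inside the macrophage-like class, and their part in the values of Ccnd3 and the other members was not tested. The 8 classical monocyte markers summed to 239 CPM in the control, 1707, 1417 and 846 under vehicle at day 1, 7 and 14, and 434, 669 and 389 under entospletinib, with none of them at 0. The 5 resident macrophage genes (Cx3cr1, Arhgap22, Tgfbr1, Slco2b1 and Agmo) summed to 5738 in the control, 3092, 2086 and 2859 under vehicle, and 4240, 4583 and 4666 under entospletinib. The 10 B cell markers summed to 258 CPM in the control, 96.7, 208 and 245 under vehicle and 112, 306 and 354 under entospletinib, lowest in the day 1 pools and highest in the day 14 entospletinib pool as Ccnd3 was, with 1 of them at 0 at vehicle day 1. The 10 T cell markers summed to 10.7 CPM at vehicle day 1 and 36.8 at entospletinib day 14, the extremes over the pools, with 1 marker at 0 at vehicle day 7 and 2 at entospletinib day 1. The 11 neutrophil markers lay between 185 and 330 CPM with none at 0. Among cells with a larger share of resident than of injury genes, which were 95.0% of the class, Ccnd3 was at 841 CPM in the control, 75.6, 183.5 and 376 under vehicle and 150, 452 and 1209 under entospletinib. The split put 86.6% of the class on the resident side at vehicle day 1, although the resident genes summed to less there than in the control. Resident, disease-associated and proliferating macrophages, which the study tells apart, were not separated here. At vehicle day 1 neutrophil-like cells had 1809 CPM of Ccnd3 and the macrophage-like cells of the same pool 75.3.

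Classical monocyte-like cells and both classes of conventional dendritic-like cells also had a lower Ccnd3 level after injury under vehicle. In classical monocyte-like cells Ccnd3 was at 678 CPM in the control, 219, 146 and 376 under vehicle at day 1, 7 and 14, and 361, 527 and 707 under entospletinib. In type 2 conventional dendritic-like cells (cDC2) the same order of conditions gave 851, 380.5, 386 and 403, then 565, 615 and 1155. In type 1 conventional dendritic-like cells (cDC1) it gave 630.5, 318, 205 and 243.5, then 400, 403 and 705. In all 3 classes each vehicle value lay below the control and each entospletinib value above the vehicle value of its day.

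Lymphocytes differed less at day 1. T-like cells had 1328 CPM in the control, 1108, 760 and 692 under vehicle and 1025, 1011 and 1666 under entospletinib. B-like cells had 1541 in the control, 1279, 792.5 and 892 under vehicle and 1310, 1192 and 1611 under entospletinib. In these lymphocytes the relative log2 ratio at vehicle day 1 was -0.44 ± 0.23 for T-like and -0.45 ± 0.34 for B-like cells. It was -1.80 ± 0.35 in classical monocyte-like, -1.30 ± 0.28 in cDC2-like and -1.15 ± 0.36 in cDC1-like cells. No test of differences between classes was possible with 1 pool per condition.

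Neutrophil-like cells followed another course. Ccnd3 was at 1738 CPM in the control (68 cells), 1809 under vehicle at day 1, 264 at day 7 and 835 at day 14. Under entospletinib it was at 1604 at day 1 and 1820 at day 7 (120 cells), and at 2438 in only 47 cells at day 14. The vehicle day 7 value rested on 1496 cells and lay 2.70 ± 0.53 below the control on the relative log2 scale, while at day 1 the difference was -0.09 ± 0.50. Drug over vehicle in these cells was -0.05 ± 0.10 at day 1 and 2.69 ± 0.37 at day 7.

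Outside the macrophage-like class, whose Ccnd3 values chose the group, classes with at least 50 cells in both conditions and at least 30 counts in the pair were counted. Proximal tubule-like cells, taken as the background class above, are among them in every comparison. Relative to the median gene, Ccnd3 lay below the control in 11 of 11 classes at vehicle day 1, in 10 of 10 at day 7 and in 10 of 10 at day 14, past 1.5-fold in 6, 8 and 6 of them. In plain CPM it lay below the control in 8 of 11, 10 of 10 and 9 of 10, with neutrophil-like, natural killer-like and distal tubule or collecting duct-like cells above it at day 1 and proximal tubule-like cells at day 14. In natural killer-like cells at day 1 (-0.14 ± 0.67) and proximal tubule-like cells at day 14 (-0.20 ± 1.34), 3 of 8 sublibraries lay on the side of the relative ratio. Several other counted values also lay within their technical SD. Examples are neutrophil-like (-0.09 ± 0.50) and distal tubule or collecting duct-like cells (-0.11 ± 2.15) at day 1 and endothelial-like cells at day 14 (-0.12 ± 0.48). Under entospletinib Ccnd3 relative to the median gene lay above vehicle in 9 of 10, 9 of 10 and 9 of 9 classes, past 1.5-fold in 4, 5 and 8, with neutrophil-like cells the exception at day 1 and proximal tubule-like cells at day 7. In plain CPM these counts were 8 of 10, 10 of 10 and 9 of 9, T-like cells being the other exception at day 1. Some drug values also lay within their technical SD, such as T-like cells at day 1 (0.12 ± 0.70). In proximal tubule-like cells at day 14 (0.18 ± 1.73), 3 of 8 sublibraries lay on the side of the relative ratio. The drug count at day 14 comes from 1 shallow pool and includes endothelial-like cells (130 CPM under vehicle and 214 under entospletinib), and whether depth or the pool has a part in it was not tested. It leaves out 5 of 14 classes with too few cells, of which neutrophil-like and Ccr7 dendritic-like cells lay above vehicle in plain CPM and loop of Henle-like, distal tubule or collecting duct-like and stroma-like cells below it. All classes of a condition come from the same mice.

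**Figure D3:**
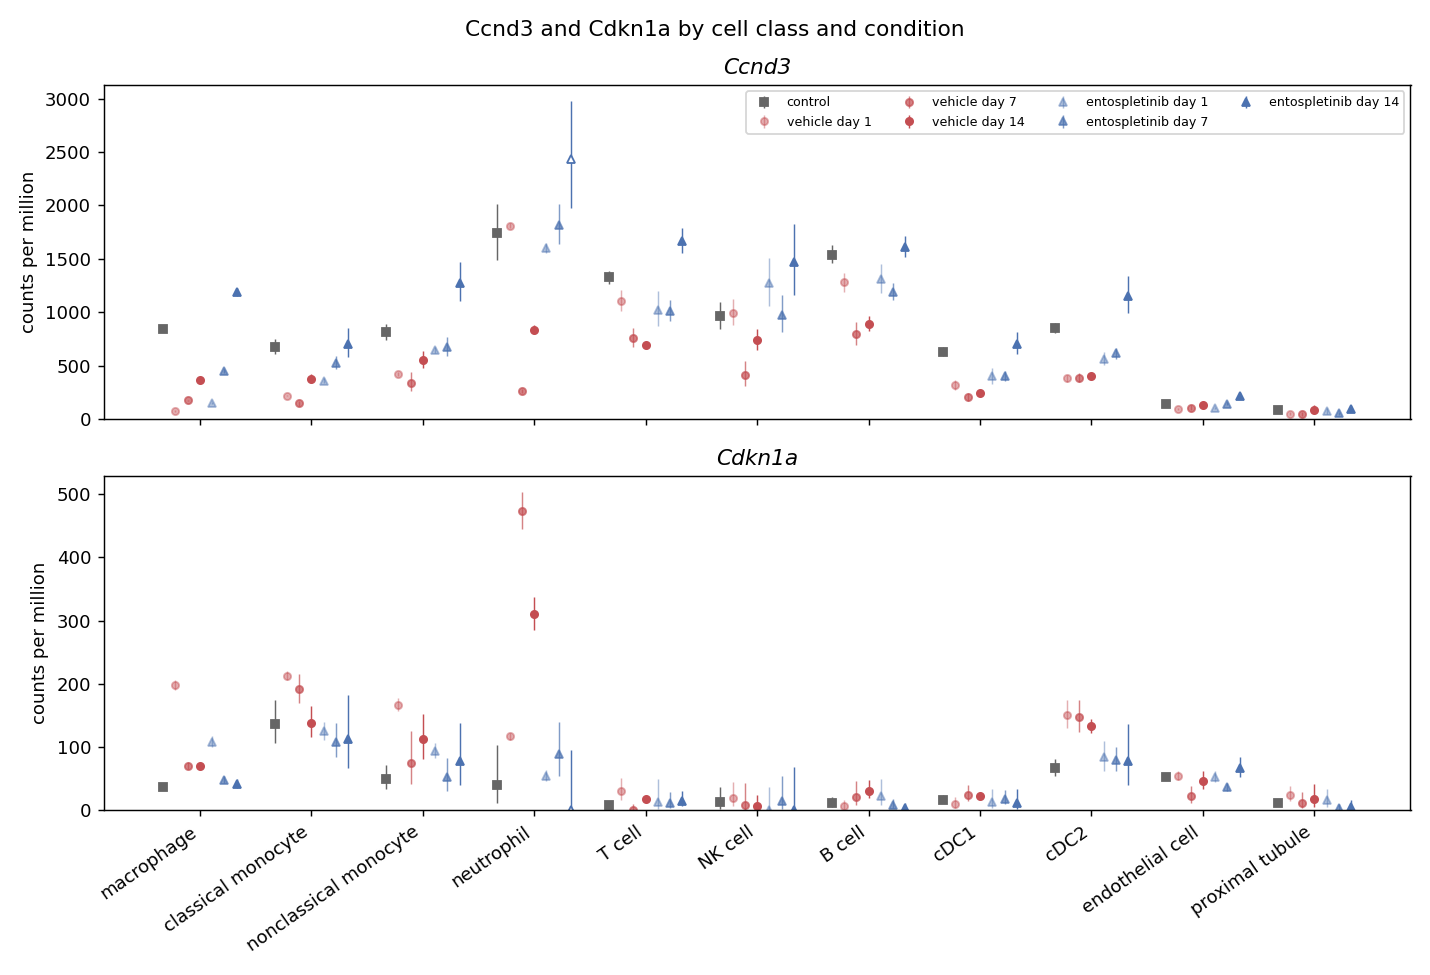
Ccnd3 and Cdkn1a in 11 cell classes in CPM (vertical axes from 0) with 95% Poisson intervals, control as squares, vehicle as circles and entospletinib as triangles, later days darker, and open symbols under 50 cells. Ccnd3 in macrophage-like cells runs from 75.3 at vehicle day 1 to 1187 at entospletinib day 14, and Cdkn1a is highest in neutrophil-like cells at vehicle day 7 with 474.

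Ccnd1, the cyclin that CSF1 induces in macrophages, ran opposite to Ccnd3 in vehicle over control at day 1. In entospletinib over vehicle at day 1 both were higher. Macrophage-like cells had 162 ± 13.3 CPM of Ccnd1 in the control, 409.5 ± 26.7 at vehicle day 1, 80.0 ± 8.20 at day 7 and 146 ± 7.66 at day 14. Under entospletinib the values were 481 ± 33.9, 198 ± 16.4 and 130 ± 22.4. Both day 1 pools lay above all others in every sublibrary and overlapped each other, and vehicle at day 7 lay below all others. The relative log2 ratio over control was 1.22 ± 0.16 at day 1, then -0.70 ± 0.18 at day 7 and -0.06 ± 0.16 at day 14. Among cells of 2000 to 4000 counts the day 7 ratio was -0.50, under 1.5-fold. Drug over vehicle was 0.34 ± 0.09 at day 1, then 0.95 ± 0.16 at day 7 and -0.23 ± 0.29 at day 14.

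The day 1 level of Ccnd1 differed by side within the class. At vehicle day 1 the 2248 resident-side cells had 467 CPM (454 to 481) and the 323 injury-side cells, which carry a larger share of an injury list with genes such as Mmp12, Gpnmb and Spp1, had 72.5 (60.1 to 86.8). Under entospletinib at day 1 the values were 494 (476 to 513) in 2132 resident-side and 256 (193 to 333) in 89 injury-side cells. The 14 injury-side control cells held 7 counts, 119 CPM (47.9 to 245), so that among injury-side cells alone the day 1 ratio over control ran the other way, at -0.97 relative to the median gene. Classical monocyte-like cells had 54.5 CPM of Ccnd1 in the control and 22.4 at vehicle day 1, and cDC2-like cells 407 and 405.

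Ccnd2, like Ccnd1, lay above the control at vehicle day 1, with a smaller relative log2 ratio over control. It was at 141 ± 13.6 CPM in control macrophage-like cells, 263 ± 20, 88.7 ± 8.27 and 117 ± 15.7 under vehicle, and 327 ± 23, 129 ± 9.34 and 80.3 ± 12.8 under entospletinib. The day 1 pools overlapped each other and lay above all others, and the other 5 formed a run of overlapping neighbours. Relative log2 ratios over control were 0.78 ± 0.18, -0.36 ± 0.22 and -0.19 ± 0.18, and the first was -1.72 among injury-side cells alone (14 in the control). Drug over vehicle was 0.42 ± 0.14 at day 1, then 0.19 ± 0.15 at day 7 and -0.60 ± 0.31 at day 14, the last under 1.5-fold in 6 of 13 alternative settings and without sublibrary 1 or 4. Among classes Ccnd2 was highest in natural killer-like cells (560 ± 103 CPM over all conditions), T-like cells (464 ± 33.3) and Ccr7 dendritic-like cells (418.5 ± 99.3), which overlapped within that spread, and was at 11.1 ± 5.94 in proximal tubule-like cells.

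Cdk6, the kinase that partners D cyclins in many blood cells, was at 893 ± 33.5 CPM in control macrophage-like cells. Under vehicle it was at 1172 ± 42.2 at day 1, 321 ± 35.7 at day 7 and 276 ± 14.6 at day 14. Under entospletinib it was at 1110 ± 87.2, 729 ± 35.9 and 358.5 ± 55.0. The late vehicle pools and entospletinib at day 14 formed the low end with overlapping sublibraries, and entospletinib at day 7 stood apart between them and the control. Relative log2 ratios over control were 0.27 ± 0.09, -1.16 ± 0.19 and -1.61 ± 0.05, and drug over vehicle was 0.03 ± 0.13, 0.83 ± 0.20 and 0.31 ± 0.24. Among injury-side cells alone the direction turned at day 1 over control (-0.82, with 14 cells in the control) and for the drug at day 7 (-0.98, with 28 cells under entospletinib).

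With all conditions pooled, Cdk6 was at 648 CPM in macrophage-like cells and next at 267 in cDC1-like cells. The order of the classes below macrophage-like cells changed with the condition. At vehicle day 14, for example, T-like cells had 259 CPM and cDC1-like cells 159. In T-like cells Cdk6 ran the other way from macrophage-like cells at the late vehicle days. It was at 122 CPM in the control and 272, 196 and 259 under vehicle at day 1, 7 and 14. Under entospletinib it was at 210, 175 and 146 on the same days. In cDC1-like cells it was at 415 in the control and 362.5, 145.5 and 159 under vehicle, and at 335, 379 and 139.5 under entospletinib, above vehicle at day 7 and below it at day 1 and 14.

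Cdk4, the other kinase, had few counts, 72 to 464 per condition in macrophage-like cells. It was at 18.5 ± 2.94 CPM in the control, 34.3 ± 4.61, 17.6 ± 4.67 and 20.6 ± 2.07 under vehicle and 36.1 ± 7.16, 22.3 ± 3.34 and 20.9 ± 7.19 under entospletinib. The 2 day 1 pools had the highest means and overlapped each other, and both overlapped entospletinib at day 14, whose sublibraries ran from 10.8 to 34.9 CPM. The relative log2 ratio over control was 0.77 ± 0.33 at day 1, and every other ratio of Cdk4 over the whole class was between -0.05 and 0.24, within its technical SD. Injury-side cells alone held 1 to 51 counts of Cdk4 per condition, with 3 counts in the control, and gave -0.96, -1.02 and -1.72 over control, and -1.57 and -0.78 for the drug at day 1 and 14.

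Cdkn1a, which encodes p21, was higher after injury. In macrophage-like cells it was at 36.4 ± 6.34 CPM in the control, 198 ± 16.0 at vehicle day 1, 70.3 ± 15.5 at day 7 and 70.3 ± 5.98 at day 14. Under entospletinib it was at 108 ± 22.8, 48.3 ± 9.90 and 41.8 ± 11.97. Vehicle at day 1 stood above every other pool in all sublibraries, and the lower neighbours overlapped in turn. Relative log2 ratios over control were 2.33 ± 0.31, 1.26 ± 0.45 and 1.03 ± 0.25, and drug over vehicle was -0.77 ± 0.33, -0.90 ± 0.34 and -0.82 ± 0.51, each with the same direction in 8 of 8 sublibraries. Among injury-side cells alone the day 1 drug ratio was -0.15, under 1.5-fold. Within cells of 2000 to 4000 counts the drug-to-vehicle ratio of CPM was 0.578, 0.813 and 0.689 at the 3 days. The classical monocyte markers in this class also lay above the control at each vehicle day and below vehicle under entospletinib. Classical monocyte-like cells had 137 CPM of Cdkn1a in the control. The part of such cells in the Cdkn1a values was not tested.

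At each day of vehicle the injury-side cells had the higher Cdkn1a level. It was 246 CPM (222 to 271) against 190 (182 to 199) in resident-side cells at day 1, 127 (104 to 154) against 64.0 (58.5 to 69.7) at day 7, and 135 (108 to 166) against 67.9 (64.5 to 71.4) at day 14. Injury-side cells were 12.45%, 7.26% and 2.66% of the class under vehicle at day 1, 7 and 14, and 3.95%, 1.20% and 2.23% under entospletinib.

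In neutrophil-like cells Cdkn1a was at 40.2 CPM in the control on 4 counts, 117, 474 and 310 under vehicle at day 1, 7 and 14, and 54.2 and 89.4 under entospletinib at day 1 and 7. No count was seen in the 47 cells of entospletinib at day 14, where 3 counts would be 77.0 CPM. Ccnd3 was lowest and Cdkn1a highest in these cells at vehicle day 7. In cDC2-like cells Cdkn1a was at 67.0 in the control, 151, 148 and 133 under vehicle and 83.6, 79.8 and 77.8 under entospletinib. T-like and B-like cells had 14.5 and 12.96 CPM of Cdkn1a over all conditions, on 87 and 54 counts.

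Cdkn1b, which encodes p27, had 159 to 1242 counts per condition in macrophage-like cells. It was at 55.9 ± 5.95 CPM in control macrophage-like cells, 33.3 ± 5.50, 38.6 ± 6.41 and 55.3 ± 3.46 under vehicle, and 27.4 ± 5.69, 52.8 ± 10.5 and 50.2 ± 7.49 under entospletinib. The day 1 pools were lowest, and every pair of neighbours in the order overlapped. Relative log2 ratios over control were -0.86 ± 0.36, -0.22 ± 0.27 and 0.07 ± 0.11, and drug over vehicle lay between -0.20 and 0.10, within the technical SD at each day. Among injury-side cells alone the day 1 ratio over control was -0.11 and the day 7 drug ratio -0.91. As a mean over conditions Cdkn1b was at 103 CPM in neutrophil-like and 96.3 in nonclassical monocyte-like cells. The order of these classes changed with the condition. Neutrophil-like cells were higher at vehicle day 1 (137 against 106) and day 14 (110 against 93.0) and at entospletinib day 1 (137 against 89.4) and day 7 (122 against 58.4). Nonclassical monocyte-like cells were higher in the control (112 against 100.5), at vehicle day 7 (117.5 against 61.4) and at entospletinib day 14 (98.3 against 51.3, the latter on 2 counts).

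**Figure D4:**
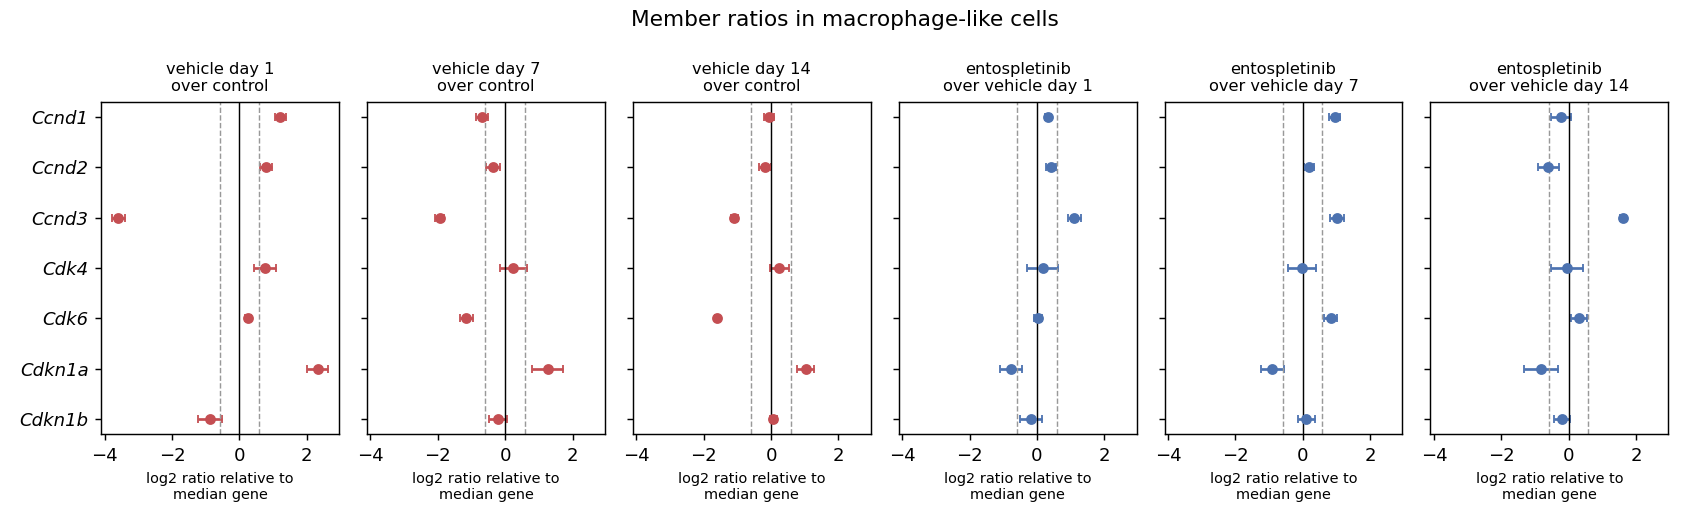
Log2 ratios of the 7 genes in macrophage-like cells relative to the median gene (horizontal axis) for vehicle over control (red) and entospletinib over vehicle (blue) at 3 days, with bars of 1 SD over 8 sublibraries and dashed lines at 1.5-fold. Ccnd3 lies at -3.59, -1.95 and -1.09 in the vehicle panels and at 1.11, 1.01 and 1.62 in the drug panels, while Cdkn1a lies on the opposite side in all 6.

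Counts of members past 1.5-fold are set beside the same count over all 3391 genes of macrophage-like cells, and since results of these comparisons picked the group, nothing is read from them. At vehicle day 1, 4 members were higher (Ccnd1, Ccnd2, Cdk4 and Cdkn1a), where 17.5% of all genes were, and 2 were lower (Ccnd3 and Cdkn1b), where 16.4% were. At day 7, 1 was higher (Cdkn1a; 11.1% of all genes) and 3 were lower (Ccnd1, Ccnd3 and Cdk6; 6.07%). At day 14, 1 was higher (Cdkn1a; 8.85%) and 2 were lower (Ccnd3 and Cdk6; 5.07%). Under entospletinib over vehicle, Ccnd3 was higher (2.24%) and Cdkn1a lower (3.86%) at day 1. At day 7 Ccnd1, Ccnd3 and Cdk6 were higher (2.24%) and Cdkn1a was lower (6.4%). At day 14 Ccnd3 was higher (3.83%) and Ccnd2 and Cdkn1a were lower (6.37%). The median of the 7 members was 0.77, -0.36 and -0.06 over control and 0.17, 0.19 and -0.20 for drug over vehicle, beside 0 for all genes by construction. Of the 7 members, 5 passed the level of 50 CPM, and Cdk4 (24.3 CPM on average) and Cdkn1b (44.8) did not.

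Cells with counts for at least 2 of 12 S-phase and mitosis genes were taken as cycling. They were 4.96% (4.26 to 5.73) of macrophage-like cells in the control, 2.62%, 10.6% and 6.90% under vehicle at day 1, 7 and 14, and 2.09%, 8.38% and 2.10% under entospletinib, shares that depend on the depth of a cell. Ccnd3 was lower in cycling than in other macrophage-like cells in all 7 conditions, with Poisson intervals that did not overlap. It was 604 against 861 CPM in the control, 37.2 against 76.9, 124 against 185 and 249.3 against 384.5 under vehicle, and 63.2 against 154, 212 against 487 and 502 against 1216 under entospletinib. Cycling cells were deeper (median 4700 against 2534 counts). Among cells of at least 4000 counts the other cells still had 1.31-fold to 1.99-fold more Ccnd3, the last in the 15 such cells of entospletinib at day 14, and at that depth the intervals overlapped under entospletinib at day 1 and day 14.

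Cdk4 lay the other way, with cycling cells at 1.29-fold to 2.59-fold the level of other cells, and the intervals did not overlap in the control, at vehicle day 7 and at entospletinib day 7. Over all conditions Cdk4 was at 33.3 CPM (29.1 to 38.0) in cycling and 22.6 (21.4 to 23.8) in other macrophage-like cells. Ccnd1 was 2.04-fold higher in cycling cells at vehicle day 1 (801 against 393.5 CPM) and 0.951-fold in the control. Cdkn1a was 3.81-fold lower in cycling cells at entospletinib day 1, on 6 counts in 47 cells, and 2.39-fold higher in them at entospletinib day 14, on 13 counts in 65 cells. With all conditions pooled, Ccnd3 in T-like cells was at 332 CPM (290 to 379) in 159 cycling cells and 1064 (1037 to 1092) in the others, and 101 of the cycling cells came from vehicle at day 14. Within conditions it was lower in cycling T-like cells in 7 of 7, with intervals apart in 5, as in the control (329 against 1396 CPM, 21 cycling cells). The intervals overlapped at vehicle day 1 and day 7, with 4 and 6 cycling cells. The pooled values in cDC1-like cells were 209 (184 to 237) and 413 (397 to 430). Within conditions cycling cDC1-like cells were lower in 6 of 7, with intervals apart in 4, and at entospletinib day 14 both parts were at 705 CPM, on 8 cycling cells.

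Other genes of the pathway were looked at in 7 lists, in which few genes reached 50 CPM in macrophage-like cells. Of the 13 pocket protein and E2F genes, 3 did. At vehicle day 1, E2f3, an activating E2F, was higher (0.61) and Rbl2, which encodes the pocket protein p130 of resting cells, lower (-1.04 ± 0.21), and none of the 3 was past 1.5-fold in another comparison. Of 21 S-phase and mitosis genes only Mki67, which marks dividing cells, reached the level, at 94.3 CPM in the control, 23.3, 117 and 107 under vehicle and 25.0, 146.5 and 62.1 under entospletinib. Its relative log2 ratio over control was -2.13 ± 0.69 at day 1 and 0.62 ± 0.54 at day 7, and it was lower with the drug at day 14 (-0.85 ± 0.73), in the shallow pool. None of 4 genes for the turnover of D cyclins and p27 that reached the level (Ambra1, Fbxw8, Gsk3b and Cul1) was past 1.5-fold in any of the 6 comparisons. Ambra1, a ubiquitin ligase adaptor that targets D cyclins, lay between -0.20 and 0.22. Of the 8 further G1/S kinases and cyclins only Mnat1 reached the level, within 0.15 of the median gene throughout, and none of the 5 further inhibitors did.

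Of 4 p53 genes and targets that reached the level, Mdm2, which turns p53 over, was higher at vehicle day 1 (1.42 ± 0.24) and day 7 (0.81 ± 0.29), and Plk2 at day 1 (1.17 ± 0.48). Btg2, an antiproliferative gene, was higher at day 7 (0.68) and day 14 (1.04 ± 0.16). Trp53 itself was within 0.34 of the median gene in all 6 comparisons. Drug over vehicle was past 1.5-fold and lower for Plk2 at day 1 (-0.88 ± 0.52), for Mdm2 (-0.59 ± 0.33) and Btg2 (-0.90 ± 0.16) at day 7, and for Plk2 (-1.31 ± 0.78) and Btg2 (-0.97 ± 0.30) at day 14, the same side as Cdkn1a. The list's median was 0.75, 0.53 and 0.47 over control and -0.39, -0.58 and -0.56 for the drug. Among 7 upstream regulators Stat3 was the single gene of all lists past 1.5-fold in 1 direction at all 3 vehicle days, at 0.61, 0.88 and 1.21, and was lower under entospletinib at day 14 (-0.64). Foxo1, Foxo3 and Runx1 were lower at vehicle day 1 (-0.63, -0.75 and -0.86), and Jun was higher at day 14 (0.63).

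In several comparisons the listed genes at one end were not past 1.5-fold. At vehicle day 7 the lowest were Rbl2 (-0.27 ± 0.31) and Stat5b (-0.22 ± 0.24), and at day 14 Fbxw8 (-0.28 ± 0.43) and Ambra1 (-0.20 ± 0.11). Under the drug the highest were Mki67 (0.21 ± 1.75) and Smad3 (0.17 ± 0.12) at day 1, Rbl2 (0.30 ± 0.32) and Rb1 (0.20 ± 0.14) at day 7, and Fbxw8 (0.41 ± 0.34) and Ambra1 (0.22 ± 0.14) at day 14. At day 1 Mdm2 was also low (-0.53 ± 0.31).

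The genes most like Ccnd3 over the 7 macrophage-like conditions, by Pearson correlation of log2(CPM + 1), were Apobec3 (r = 0.995), Ppp1r21 (0.991), Dennd5a (0.988), Ranbp10 (0.982) and Rab43 (0.980). Apobec3, a cytidine deaminase that restricts retroviruses, was at 237 CPM in the control, 72.3, 114.5 and 171.5 under vehicle and 98.9, 195 and 282 under entospletinib. The most opposite were Lpp (-0.986), Lrp12 (-0.972), Lrp1 (-0.969), Eno1 (-0.968) and Ubash3b (-0.966). Lrp1, an endocytic receptor, was at 166.5 CPM in the control, 904, 402 and 299 under vehicle and 472, 268.5 and 192 under entospletinib. The 7 points share libraries and depth, and the correlations are a description of these pools.

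Most like Cdkn1a were Lhfpl2 (0.989), Arhgap10 (0.988), Snx18 (0.986), Srgn (0.984) and Lrrfip1 (0.983), and most opposite were Stx16 (-0.982), Zfp740 (-0.977), Ranbp10 (-0.977), Slc12a9 (-0.976) and Agmo (-0.975), the last 1 of the 5 resident genes above. Ranbp10 was on both lists, alike to Ccnd3 and opposite to Cdkn1a. Between the members themselves, Ccnd3 and Cdkn1a had r = -0.934 and Ccnd3 and Cdkn1b 0.803. Ccnd3 had r = -0.520 with Ccnd1, -0.657 with Ccnd2, -0.656 with Cdk4 and -0.381 with Cdk6.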

How the data were processed

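Single-cell RNA was counted in 7 pooled conditions, each of 3 mice. According to the labels and the study's methods, the authors fixed and barcoded the cells with a Parse Evercode kit, divided them over 8 sublibraries, aligned reads to mm10 with the Parse pipeline and deposited raw counts per cell and gene with no normalization. The release of the gene annotation was not given in the sources used here. Each deposited sample is a sublibrary that mixes the conditions, and each cell was placed in its condition from the deposited cell table.

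Limits on cells were over 300 genes, under 20000 counts, under 25% mitochondrial and under 1.5% ribosomal protein gene counts. A cell was given the class with the largest share of its markers detected, at least 3 markers and no tie. Cells with at least 3 markers of another lineage at a share of at least 0.5 of the top were removed (6.40% of cells), and 13.8% stayed without a class. No doublet caller was run. Of macrophage-like cells 5.46% had exactly 3 markers, 18.8% with entospletinib at day 14. The median macrophage-like cell had 7 of 12 own markers and at most 1 of any other class, which placing cells by these markers favours.

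Counts were summed per class and condition as CPM with exact Poisson 95% intervals, and shares have exact Clopper-Pearson intervals. Intervals and floors (3 counts) cover counting error only. Ratios had 0.5 counts added, and a member was called past 1.5-fold relative to the median gene, with no test. Classes needed 50 cells in both conditions for a ratio. The ratio code was tested on simulated data with known fold changes. Members and lists were chosen with earlier results of these data known. All 7 members were named in every comparison, and of the listed genes those past 1.5-fold the same way at all 3 days and the 2 largest in each direction of each comparison, beside the 5 most and least alike genes. Further listed genes past 1.5-fold (E2f3, Foxo1, Foxo3, Runx1 and Jun), Mnat1, Gsk3b, Cul1 and Trp53 were named after their values were seen. Alternatives were edgeR TMM factors, gene and cell limits, depth, gating, mixed, cycling and side cells, and leaving out each sublibrary. The work ran in R 4.3.3 (edgeR 4.0.16) and Python 3.11.15 (matplotlib 3.10.9, pandas 2.3.3, scipy 1.17.1, numpy 2.4.6). Of the 14 genes of the p53 list, 13 were in the deposited table. One gene of the injury-side list, which entered the split of macrophage-like cells, is not reported here.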

Additional observations from a re-analysis of the deposited data

Results flagged for a closer look

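Several members moved in opposite directions at different days in macrophage-like cells, with all 8 sublibraries on one side at one day and all 8 on the other side at another, and these differences were not tested. Relative to the median gene, Ccnd1 over control was 1.22 at vehicle day 1 and -0.70 at day 7. Ccnd2 over control was 0.78 at day 1 and -0.36 at day 7. Cdk6 over control was 0.27 at day 1 against -1.16 at day 7 and -1.61 at day 14, while injury-side cells alone gave -0.82 at day 1, the side of the later days. For entospletinib over vehicle, Ccnd2 was 0.42 at day 1 and 0.19 at day 7 against -0.60 at day 14, the day of the shallow pool.

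Of 49 groups of 8 sublibraries looked at, 1 held a sublibrary far from the others, where chance gives about 1 in 20. It was Cdkn1b in control macrophage-like cells, at 69.0 CPM in sublibrary 6 with the next at 58.3 and the lowest at 49.6.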

How the results depend on the processing

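Each condition was 1 pool, so no result has a replicate check, and depth limits Cdk4, Cdkn1b and classes with few cells. No paired analysis was possible because each condition is 1 pool with no replicate number, and the sublibraries are portions of a pool and not replicates. The 42 member ratios in macrophage-like cells were recomputed under 13 alternatives, one of them chosen after seeing the data (only cells of 2000 to 4000 counts), and without each sublibrary. Without a sublibrary, all 336 values stayed within the technical SD. This was close to fixed in advance, since each value keeps all but 1 of the sublibraries that gave the SD. The Ccnd2 difference for entospletinib over vehicle at day 14 dropped under 1.5-fold without sublibrary 1 (-0.52) or 4 (-0.58), so the count of members there was 2 to 3. Of the other 546 values, 474 stayed within the SD and 4 reversed, and of 286 values past 1.5-fold 14 were lost, 6 of them that same Ccnd2 value (-0.43 to -0.58), and 8 were gained.

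A reversal was counted where a value past 1.5-fold changed sign. All 4 came in the 853 injury-side cells, of which the control had 14, so ratios to control there rest on few counts: over control at day 1, Ccnd1 was -0.97, Ccnd2 -1.72 and Cdk4 -0.96, and Cdk6 for the drug at day 7 was -0.98. In the same cells Cdkn1b over control at day 1 (-0.11) and Cdkn1a for the drug at day 1 (-0.15) were under 1.5-fold. All 8 gains came there: Cdk6 over control at day 1 (-0.82), Cdk4 over control at day 7 and 14 (-1.02 and -1.72), and for the drug Ccnd1 (1.92), Ccnd2 (1.74) and Cdk4 (-1.57) at day 1, Cdkn1b at day 7 (-0.91) and Cdk4 at day 14 (-0.78). Of these gains Cdk6 at day 1, Cdk4 over control at day 7 and 14 and for the drug at day 1, and Cdkn1b at day 7 also changed sign, from values under 1.5-fold. In these cells Ccnd3 was -2.82 and -1.79 over control at day 1 and 7 and 1.4 and 1.76 for the drug at day 1 and 14, and 4 members were past 1.5-fold for the drug at day 1. With cells placed by their whole profile, Ccnd3 over control was -3.16 and -1.77 at day 1 and 7, and 0.79 for the drug at day 1. With mixed cells kept it was -3.40 over control at day 1, and without the gene filter -2.16 at day 7. For the drug at day 14 it was 1.43 with TMM factors, 1.49 in cells of at least 1000 counts and 1.27 in cells of 2000 to 4000 counts, where day 1 gave 0.80. The cause of these shifts was not tested. Ccnd3 kept its direction and stayed past 1.5-fold in all 6 comparisons under every alternative run. In cells of 2000 to 4000 counts, Ccnd1 over control at day 7 (-0.50) and Cdkn1a for the drug at day 14 (-0.50) were under 1.5-fold.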

Other observations

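Counts of some members were also seen in endothelial-like and proximal tubule-like cells that passed the sort. What share of these counts is background was not measured. In endothelial-like cells Ccnd2 was at 250 CPM in the control, 187, 134 and 166 under vehicle at day 1, 7 and 14, and 176, 222 and 227 under entospletinib. Cdkn1a in the same cells was at 52.45 CPM in the control, 54.6, 22.7 and 46.2 under vehicle, and 52.9, 36.4 and 66.4 under entospletinib. The vehicle day 7 value of Cdkn1a rested on 13 counts in 199 cells, with sublibraries from 0 to 59.7 CPM. In proximal tubule-like cells Ccnd1 was at 192 CPM in the control, 165, 174 and 52.7 under vehicle, and 126, 166 and 99.9 under entospletinib, the vehicle day 14 value resting on 15 counts in 81 cells. Cdk4 in proximal tubule-like cells was at 29.2 CPM in the control, 45.7, 38.7 and 17.55 under vehicle, and 26.2, 24.9 and 21.4 under entospletinib. The vehicle day 1 value rested on 34 counts, with sublibraries from 0 to 84.2 CPM.

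In nonclassical monocyte-like cells Ccnd3 was at 812.5 CPM in the control, 424, 342 and 555 under vehicle, and 647, 674 and 1278 under entospletinib. Cdk6 in natural killer-like cells was at 93.7 CPM in the control and 144, 200 and 178 under vehicle, on 22 to 53 counts per condition.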
